A study of Mus musculus with 6 samples.

Results

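Carboxylesterases are serine hydrolases that cleave ester, amide and thioester bonds, and most of those made in liver reside in the lumen of the endoplasmic reticulum. They clear drugs and toxicants that carry ester groups, and several also hydrolyse stored triglyceride and cholesteryl ester, the lipid that feeds very-low-density lipoprotein (VLDL) assembly. In mice the genes lie in clusters on chromosome 8, where repeated gene duplication has left many close relatives. In rodent liver, several carboxylesterase genes respond to the xenobiotic receptors CAR and PXR.

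The transcripts described here are those of 10 mouse carboxylesterases, Ces1c, Ces1d, Ces1e, Ces1f, Ces1g, Ces2a, Ces2c, Ces2e, Ces3a and Ces3b. They were picked out by gene symbol, but the list was drawn up with earlier results of these data known. Each probe set, the group of short probes that reads 1 transcript, had to carry exactly 1 of these symbols. That gave 9 of the 45101 probe sets and 7 of the 18193 genes on the array. Of the remaining members, Ces3a and Ces3b share a probe set that carries both symbols, and Ces2c was not analysed here, since no probe set carried its symbol. Liver samples numbered 3 from SRC-2 null (SRC-2-/-) and 3 from wild-type mice, all female, on a C57 background, ovariectomized at 6 weeks of age and killed 2 weeks later under Avertin anaesthesia. The absence of ovaries is thus shared by both genotypes. Ncoa2 encodes SRC-2, which helps nuclear receptors activate their target genes, and the comparison asks which liver transcripts differ without it. The labels do not describe the allele, the cell types that lack SRC-2 or the feeding state.

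Values are log2 expression after robust multi-array average (RMA), and array medians were 4.17 to 4.24. Ncoa2 itself was lower in the null livers, with log2 fold changes of -2.44 at 1435233_at and -2.16 at 1435234_at and no overlap of the groups. The other 2 Ncoa2 probe sets, whose place relative to the deleted part is not known here, did not pass, at log2 fold changes of 0.07 and -0.27. Of 11 hepatocyte markers tested none was called in limma (0 at a p below 0.05 without adjustment), and albumin (Alb) was at 14.41 ± 0.05 in null and 14.44 ± 0.02 in wild-type liver (SD, n = 3 each). Replicate 3 of both genotypes stood apart from replicates 1 and 2 over all genes, with a correlation of 0.516 between the deviations of the 2 arrays numbered 3. With 3 arrays per genotype the precision of each value is limited.

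In SRC-2 null liver, 1 of the 7 carboxylesterase genes measured rose, Ces2a, and none fell. Over all 11894 genes tested with limma, 4.67% were called, that is, had a Benjamini-Hochberg adjusted p below 0.05, 1.55% higher and 3.13% lower, so 1 of 7 is too small a count to set the family apart from that background. Without adjustment, at a p below 0.05, 3 of the 7 passed (Ces2a, Ces1e and Ces2e), where 17.2% of all tested genes did. The log2 fold changes were above 0 for the 2 Ces2 members measured, and below 0 for the 5 Ces1 members. Outside the members the signs were the other way, at log2 fold changes of -0.05 for Ces2g and 0.10 for Ces1h, neither of them called. Their 95% intervals, -0.48 to 0.39 and -0.13 to 0.33, include values of either sign, so they cannot tell whether the split holds. The median over the 7 was -0.07, against 0.00 over all tested genes. All 7 genes with a probe set of their own passed the filter on dim genes, with means over the 6 arrays between 8.37 and 13.07.

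**Figure D1:**
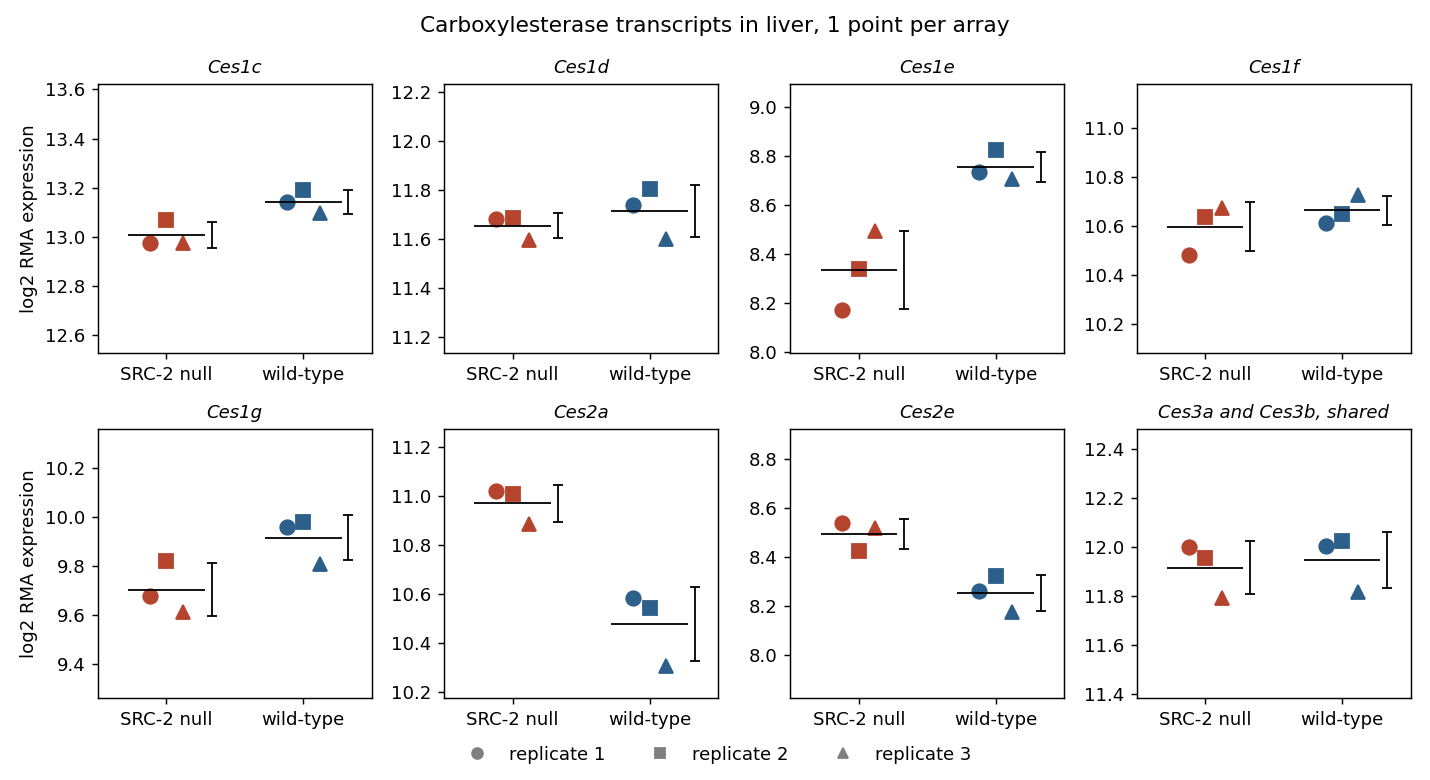
Log2 RMA expression of 7 carboxylesterase genes and of the probe set shared by Ces3a and Ces3b, 1 point per array with its replicate number as the symbol. Horizontal lines are group means and bars the SD (n = 3), each panel spans the same range, and the null arrays lie above the wild-type arrays for Ces2a and Ces2e and below them for Ces1c and Ces1e.

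The Ces2 enzymes, which in general prefer esters with a small acyl group and a bulky alcohol, were represented by Ces2a and Ces2e. Ces2a (1449375_at) read 11.02, 11.01 and 10.88 in null replicates 1 to 3, against 10.59, 10.54 and 10.31 in wild-type replicates 1 to 3. Every null array was above every wild-type array, and replicate 3 was the lowest of its genotype in both. Ces2a averaged 10.97 ± 0.07 in null and 10.48 ± 0.15 in wild-type liver (SD, n = 3 each), a 1.41-fold rise (log2 fold change 0.49, SE 0.10, 95% interval 0.26 to 0.72, limma adjusted p = 0.0304). Paired by replicate number, the null array was higher by 0.43, 0.47 and 0.58. With the replicate number as a block the adjusted p was 0.0148. The call was lost, at adjusted p values of 0.0507 to 0.121, whichever array was left out, while the log2 fold change stayed between 0.41 and 0.55. It was also lost when all 19623 single-symbol probe sets above the filter were tested separately (limma adjusted p = 0.0627), a test in which 2.41% of probe sets and 0 of the 9 carboxylesterase probe sets were called. With the replicate block it passed there too (adjusted p = 0.0261).

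Ces2e (1427137_at), a liver and intestinal carboxylesterase, read 8.54, 8.42 and 8.52 in null liver, against 8.26, 8.32 and 8.17 in wild-type liver. The groups did not overlap here either, but the smallest null value lay only just above the largest wild-type value. The log2 fold change was 0.24 (SE 0.08, 95% interval 0.05 to 0.43) and did not pass in limma (adjusted p = 0.182, unadjusted p = 0.0192). Ces2c, the acylcarnitine hydrolase gene between them in the cluster, was not measured by a listed probe set. For the related Ces2g (1424968_at) the log2 fold change was -0.05, with a wide 95% interval, -0.48 to 0.39. Its arrays read 5.61, 6.22 and 6.28 in null liver, against 5.91, 6.00 and 6.34 in wild-type liver, so the spread within each genotype exceeded the difference. Ces2b and Ces2f averaged too low for the filter and have no test.

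Because Ces2a and Ces2e had the same sign, the 250 bases before their start sites are shown, from RefSeq (GRCm38.p6), both on the plus strand, at chr8:104733753-104734002 for Ces2a and chr8:104926010-104926259 for Ces2e. Capitals mark the longest run the windows share and the word ACTTTGCCC.
Ces2a: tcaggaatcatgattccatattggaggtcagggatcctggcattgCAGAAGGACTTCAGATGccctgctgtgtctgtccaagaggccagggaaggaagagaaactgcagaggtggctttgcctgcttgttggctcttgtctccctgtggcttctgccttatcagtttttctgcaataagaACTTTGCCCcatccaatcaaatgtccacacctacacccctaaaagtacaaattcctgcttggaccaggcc
Ces2e: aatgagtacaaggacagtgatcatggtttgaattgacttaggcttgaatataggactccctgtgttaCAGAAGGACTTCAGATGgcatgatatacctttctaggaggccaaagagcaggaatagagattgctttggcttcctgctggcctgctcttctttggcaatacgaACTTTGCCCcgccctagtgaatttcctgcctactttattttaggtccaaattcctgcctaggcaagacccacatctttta
The shared run, CAGAAGGACTTCAGATG, is 17 bases long and was taken from these 2 windows, so its presence in both was fixed in advance. Searched on either strand, it was in 2 of 32851 promoter windows of this length, these being the pair shown. Close relatives can share promoter sequence by descent, so no weight is put on this match. The word ACTTTGCCC, picked after the sequences were seen, began 70 bases before the start in Ces2a and 80 before it in Ces2e. It also stood in the windows of Ces2f and Ces2g, and in 0.222% of all windows. It shares the letters ACTTTG with the reverse complement of the HNF4 motif CAAAGTCCA, which itself was in none of the 7 member windows available and in 0.384% of all. The nuclear receptor core word AGGTCA was in 1 of these 7 windows, that of Ces2a, and in 14% of all windows. A match says only that the letters are present.

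The Ces1 enzymes generally prefer a bulky acyl group and a small alcohol. Ces1e encodes egasyn, which holds beta-glucuronidase in the endoplasmic reticulum of mouse liver. Its probe set, 1419510_at, read 8.17, 8.34 and 8.49 in null replicates 1 to 3, against 8.73, 8.82 and 8.70 in wild-type replicates 1 to 3. All null arrays were below all wild-type arrays, and the null arrays were spread more widely. The means were 8.33 ± 0.16 in null and 8.75 ± 0.06 in wild-type liver (SD, n = 3 each), a 1.34-fold lower level in null (log2 fold change -0.42, SE 0.10, 95% interval -0.65 to -0.19). The difference did not pass (limma adjusted p = 0.0583), but passed with the replicate number as a block (adjusted p = 0.0499), a fit that called 7.00% of all genes, 2.58% higher and 4.41% lower. When an array was left out the log2 fold change was -0.50 to -0.34 and the adjusted p 0.0435 to 0.220, passing only without null replicate 3. Over single probe sets it did not pass (adjusted p = 0.107, and 0.0738 with the replicate block). For Gusb, the gene of egasyn's partner beta-glucuronidase, the groups overlapped (log2 fold change 0.16, SE 0.11, adjusted p = 0.534). The receptor genes Kdelr1 and Kdelr2, which return proteins to the endoplasmic reticulum, did not pass, at log2 fold changes of -0.09 and -0.07. The related Kdelr3 averaged below the filter and was not tested. It read 3.40, 3.20 and 3.34 in null, against 3.61, 3.57 and 3.46 in wild-type liver, with no overlap.

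Ces1g (1449486_at), the mouse gene also named Ces1, encodes a hepatic carboxylesterase linked to lipid metabolism. It read 9.68, 9.82 and 9.61 in null liver, against 9.96, 9.98 and 9.81 in wild-type liver. In each pair of the same replicate number the null array was lower, by -0.28, -0.16 and -0.20 as null minus wild-type, yet null replicate 2 overlapped wild-type replicate 3. The log2 fold change of -0.21 (SE 0.09, 95% interval -0.43 to 0.00) did not pass (limma adjusted p = 0.299, and 0.137 with the replicate block). Ces1c (1416913_at), which encodes a carboxylesterase that mouse liver secretes into plasma, read 12.97, 13.07 and 12.97 in null liver, against 13.14, 13.19 and 13.10 in wild-type liver. The groups did not overlap, but the gap was small, with a log2 fold change of -0.14 (SE 0.08, 95% interval -0.32 to 0.05, limma adjusted p = 0.447).

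The other two measured Ces1 genes are best known for lipid mobilisation. Ces1d encodes triacylglycerol hydrolase, which releases stored triglyceride for VLDL, and Ces1f a relative also named TGH-2. At 1449081_at Ces1d read 11.68, 11.68 and 11.59 in null liver, against 11.74, 11.80 and 11.60 in wild-type liver. The groups overlapped, and in both genotypes replicate 3 was the lowest. Its 3 probe sets had log2 fold changes of -0.06 (1449081_at), -0.04 (1435370_a_at) and -0.06 (1435371_x_at), so they differed little from each other. The 95% interval at the first was -0.26 to 0.14, which leaves room for neither a rise nor a fall as large as the value of Ces2a. Ces1f (1424266_s_at) read 10.48, 10.64 and 10.67 in null liver, against 10.61, 10.65 and 10.73 in wild-type liver. Its groups overlapped as well, with a log2 fold change of -0.07 and a 95% interval of -0.27 to 0.14 (limma adjusted p = 0.776).

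Promoter windows were available for 3 of the 5 Ces1 members measured, Ces1c, Ces1e and Ces1g, whose log2 fold changes were all below -0.1. They are shown, 250 bases each on the minus strand of GRCm38.p6 (RefSeq), from chr8:93131284-93131533, chr8:93229620-93229869 and chr8:93337210-93337459 in this order. Capitals mark TTATGTAA, a word known as the D-box, which PAR-bZIP factors of the circadian output bind.
Ces1c: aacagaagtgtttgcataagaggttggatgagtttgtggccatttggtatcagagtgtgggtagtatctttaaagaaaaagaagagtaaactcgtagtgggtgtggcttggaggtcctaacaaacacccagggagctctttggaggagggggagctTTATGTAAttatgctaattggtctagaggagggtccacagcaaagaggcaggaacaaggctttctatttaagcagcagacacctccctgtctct
Ces1e: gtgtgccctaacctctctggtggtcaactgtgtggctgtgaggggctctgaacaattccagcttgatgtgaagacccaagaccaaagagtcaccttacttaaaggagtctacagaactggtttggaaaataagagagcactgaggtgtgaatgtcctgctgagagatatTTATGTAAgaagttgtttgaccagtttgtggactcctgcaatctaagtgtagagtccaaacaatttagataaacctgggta
Ces1g: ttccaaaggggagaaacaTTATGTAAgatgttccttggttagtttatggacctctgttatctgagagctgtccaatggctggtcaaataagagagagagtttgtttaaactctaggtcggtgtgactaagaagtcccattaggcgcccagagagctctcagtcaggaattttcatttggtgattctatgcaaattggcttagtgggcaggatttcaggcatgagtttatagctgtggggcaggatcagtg
The D-box word, chosen after the sequences were seen, stood on the gene's strand in all 3, beginning 94, 81 and 232 bases before the start in the order above. Among the family's other windows it was also in those of Ces1a and Ces1b, and in none of the Ces2 windows. Over all 32851 windows 0.819% held it on either strand. Close relatives share promoter sequence by descent, so these matches are not independent of each other.

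Ces3a and Ces3b, both listed under the older name Es31, encode liver carboxylesterases, and their shared probe set, 1451600_s_at, cannot be divided between them. It read 12.00, 11.96 and 11.79 in null liver, against 12.00, 12.03 and 11.82 in wild-type liver. The genotypes overlapped almost fully, and the arrays numbered 3 were the lowest in both. In a fit over all probe sets the log2 fold change was -0.03 (95% interval -0.27 to 0.21, limma adjusted p = 0.940).

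**Figure D2:**
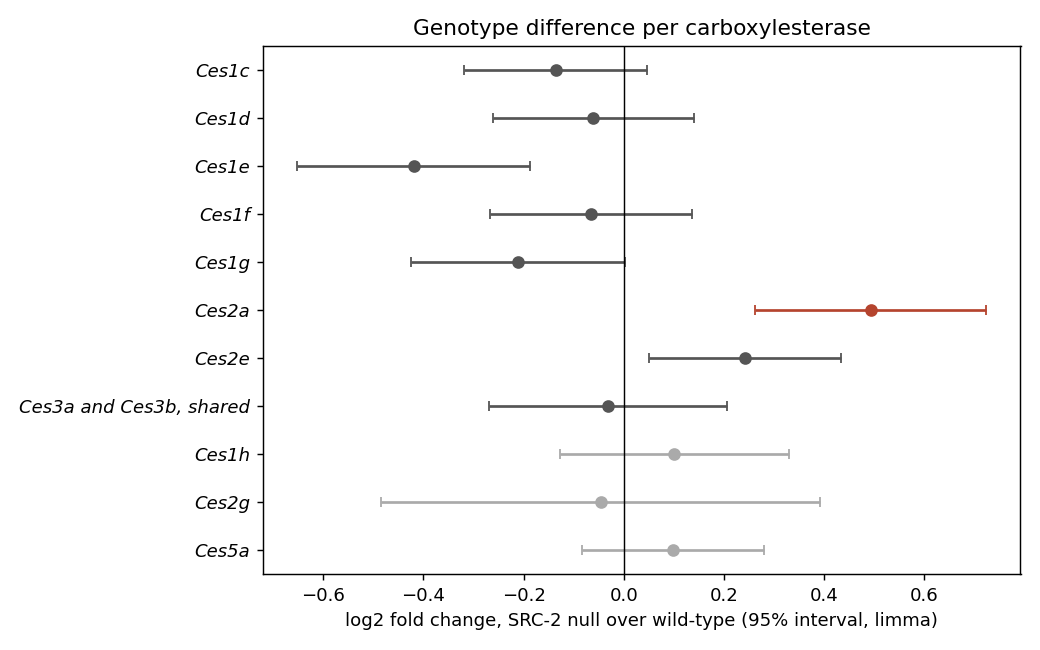
Log2 fold change of SRC-2 null over wild-type liver with its 95% interval from limma for the 7 carboxylesterase genes, the probe set shared by Ces3a and Ces3b (from the fit over all probe sets) and, in light grey, 3 related genes. Ces2a, in red, is the called gene at 0.49, Ces1e lies at -0.42, and the intervals of Ces1c, Ces1d, Ces1f and Ces1g include 0.

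The 3 null and the 3 wild-type values were fully separate for 4 of the 7 genes, 2 of them higher and 2 lower, and for 23.4% of all tested genes. The median size of the log2 fold change, without its sign, was 0.21 over the 7 and 0.11 over all tested genes. The sets are unlike in brightness, as the 7 had means of at least 8.37 and the median tested gene 6.52. RMA compresses folds at low values, and the members were chosen with earlier results known. Replicate 3 was the lowest array of both genotypes for 3 of the 7 (Ces1d, Ces1g and Ces2a) and for 12.8% of all tested genes. Taken by genotype, it was the lowest wild-type array for 6 of the 7 and the lowest null array for 3. The matching shares over all tested genes were not counted. The Ces2a difference was 0.58 within replicate 3 and 0.45 in replicates 1 and 2 alone. That of Ces1e was -0.21 within replicate 3 and -0.52 in replicates 1 and 2. With a block for replicate 3 the limma adjusted p was 0.00672 for Ces2a and 0.0395 for Ces1e. What set replicate 3 apart was not tested. Close relatives can share probes, above all at probe sets with the name endings _s_at and _x_at, and the probe sequences were not used here. The Ces2a and Ces1e probe sets have neither ending, but whether they read a relative as well was not tested.

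**Figure D3:**
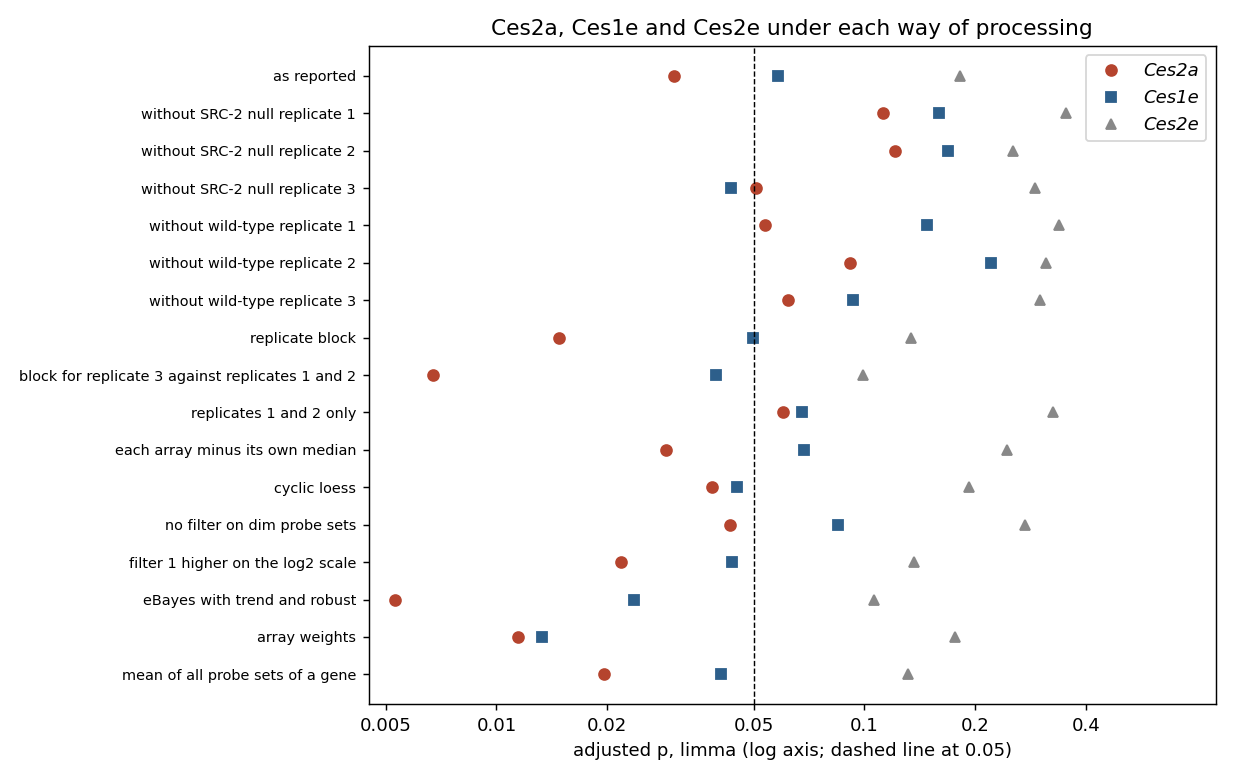
Benjamini-Hochberg adjusted p from limma (log axis) for Ces2a, Ces1e and Ces2e as reported and under 16 other ways of processing, with a dashed line at 0.05. Ces2a is below 0.05 in 9 of the 16, Ces1e in 8 and Ces2e in none, and all 6 settings that leave out 1 array put Ces2a above 0.05.

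Among 3 further family genes above the filter, none was called in limma, nor did any (0 of 3) have an unadjusted p below 0.05. Ces1h, Ces2g and Ces5a had log2 fold changes of 0.10, -0.05 and 0.10 with adjusted p values of 0.682, 0.941 and 0.602. Ces4a lay below the filter, at 3.94 in null and 3.69 in wild-type liver.

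Outside the family, Lpl and Lipg changed among the ester and lipid hydrolases tested. Of 16 tested genes for the hydrolysis of triglyceride and cholesteryl ester, 1 rose, 1 fell and 14 did not pass. The median log2 fold change of the 16 was -0.05, and 4 of them had an unadjusted limma p below 0.05. Lpl, lipoprotein lipase, rose 1.87-fold (log2 fold change 0.90, SE 0.11, limma adjusted p = 0.00246), and Lipg, endothelial lipase, fell 3.07-fold (log2 fold change -1.62, SE 0.29, limma adjusted p = 0.0185). With the replicate block Pnpla2, adipose triglyceride lipase, passed as well (log2 fold change 0.47, adjusted p = 0.0383, against 0.0728 without it). Aadac, arylacetamide deacetylase, which shares drug substrates with carboxylesterases, did not pass either (log2 fold change -0.06). None of 18 other esterases and amidases passed (4 in limma at a p below 0.05 without adjustment), and 1, the epoxide hydrolase gene Ephx2, did with the replicate block (log2 fold change 0.35, adjusted p = 0.0449). None of 14 genes of VLDL assembly passed, 0 of them even at an unadjusted p below 0.05 in limma, and their median was -0.01. They include Apob, the VLDL structural protein, and Mttp, which loads it with lipid, at log2 fold changes of -0.17 and -0.10.

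Receptors and regulators of hepatic drug metabolism comprised 15 tested genes, of which 1 fell and 14 did not pass (median log2 fold change -0.11). Without adjustment, 4 of the 15 had a limma p below 0.05. Nr0b2, which encodes the repressor SHP, fell 1.93-fold, to 7.14 ± 0.12 in null, against 8.09 ± 0.12 in wild-type liver (SD, n = 3 each, limma adjusted p = 0.00127). Cebpb, a liver transcription factor gene, passed only with the replicate block (log2 fold change -0.54, adjusted p = 0.0197, against 0.153 without it). Neither the gene of PXR, Nr1i2 (log2 fold change -0.29, limma adjusted p = 0.0802), nor that of CAR, Nr1i3 (-0.11, adjusted p = 0.740), passed. Of 18 tested genes known to respond to these receptors, 2 rose, 2 fell and 14 did not pass (median -0.06). Over all tested genes 1.55% rose and 3.13% fell. Without adjustment, 8 of the 18 had a limma p below 0.05, against 17.2% of all tested genes. The list was drawn up with earlier results of these data known. The glutathione transferase gene Gstm3 fell 2.40-fold and Gsta2, another glutathione transferase gene, rose 2.03-fold, with limma adjusted p values of 0.000145 and 0.000474. Cyp3a44, a cytochrome P450 gene, fell 1.47-fold (adjusted p = 0.0173). The fourth called gene, the organic anion transporter Slco1a4, named after its value was seen, rose 1.28-fold (limma adjusted p = 0.0483). The cytochrome P450 gene Cyp2b13 passed with the replicate block alone (log2 fold change -0.55, adjusted p = 0.0121, against 0.0678 without it).

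**Figure D4:**
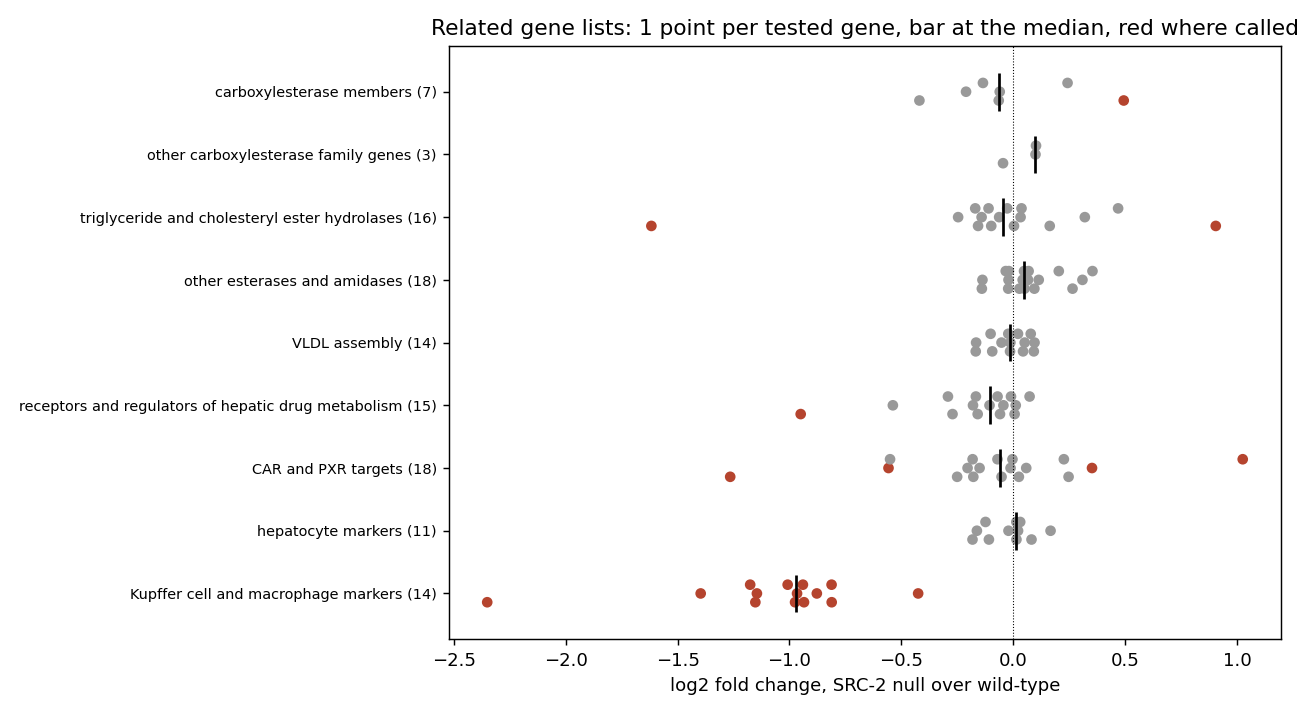
Log2 fold change of SRC-2 null over wild-type liver for each tested gene of 9 lists, with the number tested in brackets, a bar at the list's median and red points for called genes. The 7 carboxylesterases span -0.42 to 0.49, and the 14 macrophage markers, all called lower, have a median of -0.97.

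Cell markers that moved with genotype stand beside these values, and in whole tissue fewer cells of a type and less RNA per cell cannot be told apart. All 14 Kupffer cell and macrophage markers fell, with a summed level (log2 of the sum of unlogged values) of 11.42 to 11.54 in null and 12.48 to 12.55 in wild-type liver. The defining marker Adgre1 fell 2.26-fold, and Marco, Cd5l and Timd4 fell 5.10-fold, 2.22-fold and 2.63-fold. Of 2 tested adipocyte markers Fabp4 rose 3.31-fold and Retn, at a log2 fold change of 0.30, did not pass. Their summed level, mostly from Fabp4, was 8.29 to 8.45 in null and 6.72 to 7.11 in wild-type liver. Adipoq, a defining adipocyte gene, averaged below the filter and was not tested. It read 4.88, 4.99 and 5.42 in null, against 2.92, 2.97 and 3.01 in wild-type liver, with no overlap. Lep and Acvr1c also averaged below the filter, at 2.82 and 3.06 in null, against 2.74 and 3.10 in wild-type liver. The groups overlapped for Acvr1c but not for Lep. Of 4 intestinal epithelium markers tested Fabp2 rose 1.33-fold and made up most of the summed level, which was 9.45 to 9.61 in null and 9.26 to 9.28 in wild-type liver. Lgals4, Guca2a and Cdx2 did not pass, at log2 fold changes of -0.13, 0.20 and 0.11. Vil1, Cdx1, Lct and Muc2 averaged below the filter in both genotypes. Of these only Cdx1 had no overlap, at 3.74 in null and 3.45 in wild-type liver. Among 2 erythroid markers tested Alas2 rose 1.55-fold and Slc4a1, at a log2 fold change of 0.07, did not pass. Their summed level, nearly all from Alas2, was 8.23 to 8.49 in null and 7.75 to 7.85 in wild-type liver. Hba-a1 and Epb42 averaged below the filter with overlapping groups, at 2.97 and 3.32 in null, against 2.83 and 3.25 in wild-type liver. Of 4 exocrine pancreas markers none passed (1 in limma at a p below 0.05 without adjustment), and Cela1, with a log2 fold change of -0.58, did so with the replicate block (adjusted p = 0.0397). Their summed levels were 7.55 to 7.61 in null and 7.79 to 7.85 in wild-type liver, and the pancreatic esterase gene Cel averaged below the filter in both. Of 2 kidney tubule markers tested none passed in limma (0 without adjustment), with summed levels of 5.81 to 6.23 in null and 5.92 to 6.18 in wild-type liver. Below the filter, Umod and Slc34a1 had no overlap, at 2.41 and 3.72 in null, against 2.53 and 4.14 in wild-type liver. The groups overlapped for Slc12a1, Lrp2 and Kap, also below it. The part of these cell types in the carboxylesterase values was not tested.

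The 3 tested genes outside the family whose values over the 6 arrays correlated most with Ces2a were Mat1a, Tpmt and Acaa1a, with Pearson correlations of 0.994, 0.994 and 0.993. The points share genotype and the low replicate 3, so this is a description of 6 arrays, picked from all tested genes. Mat1a, which makes S-adenosylmethionine in liver, and Tpmt, a thiopurine methyltransferase, had log2 fold changes of 0.48 and 0.51, and Acaa1a, a peroxisomal thiolase, of 0.29.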

How the data were processed

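Total RNA from frozen liver was labelled with biotin and measured on Affymetrix short oligonucleotide arrays, 3 per genotype, per the labels' protocols. Per the submitters' processing notes, the deposited log2 expression values come from RMA, of which the version is not given in the sources used here, nor is a genome build. RMA compresses folds at low values, and detection calls were not used. Replicates are numbered in the labels, but nothing says that they are separate animals, and p-values therefore reflect only the variation among these arrays, part of which may be technical.

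Gene names came from the platform's annotation, in which 34945 probe sets had 1 symbol, 932 several and 9160 none listed. Names from a probe set with several symbols were not assigned. Each gene was represented by its brightest single-symbol probe set, and was tested where the mean over 6 arrays reached the median probe set, 4.21. The genotype difference was fitted in R 4.3.3 by limma 3.58.1 (functions lmFit and eBayes, two-sided tests, no covariate), with Benjamini-Hochberg adjustment over all 11894 genes. Alternatives were leaving out each array, blocks for the replicate number and for replicate 3, other scalings, filters, variance models and the mean of all probe sets. The deviations of same-numbered arrays from their group means had correlations of 0.18, 0.203 and 0.516 for numbers 1, 2 and 3. The arrays numbered 1 and 2 correlated about as much across numbers (0.206 and 0.166), so only the arrays numbered 3 stood apart. The block for the replicate number is thus an alternative fit, given where it changes a call. The procedure was tested on simulated data. The simulated noise was independent between arrays, unlike that of the arrays numbered 3, so the test does not bear on single calls here. Plots used Python 3.11.15 and matplotlib 3.10.9.

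The members and lists were chosen with earlier results of these data known. Named genes are all members, the other family genes, Ncoa2, Gusb, up to 3 called genes with the smallest p per list, the 3 genes most like the member with the smallest p, and defining markers of other cell types. Genes outside this rule (Lgals4, Guca2a, Cdx2, Slc4a1, Kdelr1, Kdelr2, Pnpla2, Ephx2, Cebpb, Cyp2b13, Cela1, Slco1a4, Nr1i2, Nr1i3, Aadac, Apob, Mttp and Retn) were added once their values had been seen. Vil1, Cdx1, Lct, Muc2, Lep, Acvr1c, Hba-a1, Epb42, Umod, Slc34a1, Slc12a1, Lrp2 and Kap were added as markers below the filter. Kdelr3, also below it, was added to Kdelr1 and Kdelr2.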

Additional observations from a re-analysis of the deposited data

How the results depend on the processing

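All 7 carboxylesterase genes kept the sign of their log2 fold change under each of the 16 other settings with a test. Against 1 carboxylesterase gene called as reported, there were 2 (Ces2a and Ces1e) with the replicate block, the block for replicate 3, cyclic loess, the higher filter, eBayes with trend and robust, array weights, and the mean of all probe sets. There were 0 in replicates 1 and 2 only (limma adjusted p of 0.0603 for Ces2a and 0.0676 for Ces1e), and 0 to 1 when an array was left out, the 1 being Ces1e without null replicate 3. Of the 9 carboxylesterase probe sets, 0 were called as reported, 1 with the replicate block, the block for replicate 3 or the higher filter, and 2 with eBayes with trend and robust or with array weights. The count over all genes, 556, was 832 with the replicate block, 982 with the block for replicate 3, 985 with array weights, 328 in replicates 1 and 2 only and 276 to 438 when an array was left out. Fewer arrays leave fewer degrees of freedom; for the other shifts the cause was not tested. The fit over all probe sets was added after the data were seen and called 0 of the 9. The replicate block changed the call of no carboxylesterase gene other than Ces1e.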
